A study of Mus musculus with 8 samples.

Results

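*Lims1*, *Zcchc8*, *Dusp11* and *Gm15725* are 4 of the 10690 genes listed in at least 1 of the 3 tables of polyadenylation sites (PASs) analysed here. They were chosen because each had the lowest or the highest REDu of a comparison, so their PAS shares and REDu values are given as a description, without a test. REDu is the log2 ratio of distal over proximal PAS usage in a treated library minus that in nontreated cells, for the 2 PASs of the 3′-most exon whose shares changed most. A negative REDu means relatively more of the shorter isoform. Values were ranked over genes with at least 200 reads in both libraries and with a share of 5% or more for each compared PAS in both. On that ranking *Gm15725* was lowest of 3901 genes in AS, *Lims1* was lowest and *Zcchc8* highest of 3643 genes in RC4, and *Dusp11* was lowest of 3819 genes in RC8. The genes next in order were *Lrrc58* in AS (REDu = −2.90), *Morc2a* and *Morc3* in RC4 (−3.12 and 3.0) and *Crot* in RC8 (−2.72). Each of these lay within 1.96 counting errors, which cover read numbers only, of the gene ranked before it.

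The cells were NIH3T3, an established line of mouse fibroblasts, kept proliferating in DMEM with calf serum. NT cells received no arsenite, AS cells were exposed to 250 μM sodium arsenite for 1 h, and RC4 and RC8 cells were given the same exposure followed by 4 h or 8 h in normal medium. Total RNA of each condition was made into 1 QuantSeq FWD library, in which reads start near the 3′ end of a transcript, and the MAAPER program assigned the reads of a gene to its PASs. Since each condition has 1 library, the data allow no SD and no P value, all 3 comparisons share the NT library, and every interval or error given here covers the counting of reads only, which are not independent molecules.

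Each library had between 22.4 M and 23.0 M reads on the listed genes. The arsenite labels could be checked on a list of arsenite-inducible genes, of which 15 of 18 were listed. A log2 level increase of 1 or more was found in AS, RC4 and RC8 for 8, 13 and 7 of them, against 0.622%, 3.69% and 2.97% of all genes. For example, *Hmox1*, the heme-degrading oxygenase, had 27.6, 57.8, 888 and 101 RPM in NT, AS, RC4 and RC8, where RPM is the read number of a gene scaled to the total reads on genes of its library. All 8 fibroblast markers of a fixed list were listed in the tables and none of 13 markers of epithelial, blood, endothelial or muscle cells was, where the tables hold genes with at least 50 reads. The fibroblast markers summed to 14482, 15097, 11574 and 8724 RPM in NT, AS, RC4 and RC8. A log2 decrease of 1 or more was found in AS, RC4 and RC8 for 0, 2 and 3 of the 8. Over all genes it was found for 3.22%, 13.4% and 3.53%. The part of the marker changes in the values of the 4 genes was not tested.

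Cleavage and polyadenylation of a pre-mRNA at alternative PASs in the last exon gives mRNAs with the same coding sequence and 3′UTRs of different length. The cleavage site is chosen by a protein complex that reads the AAUAAA signal or a variant shortly upstream of the cut and a U- or GU-rich element downstream. The stretch present in the long isoform alone can hold sites for microRNAs and RNA-binding proteins that act on stability, translation or localization. Proximal sites are often weaker matches to the signal, and stress, proliferation and differentiation are known settings of changed PAS usage.

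The sequences that end at the compared PASs are shown because they hold the cleavage signal of the compared isoforms, where one was found. They were read from the mm9 genome, on the strand of the gene, as 30 nt that end with the listed PAS, and capitals mark the polyadenylation hexamer found by a search of 11 known forms.
*Dusp11* proximal PAS, chr6:85897506-85897535, minus strand: aatgaatttAATAAAatcaggtcaaaagaa
*Dusp11* distal PAS, chr6:85892262-85892291, minus strand: ctttatAATAAAttatcaaactttgccaaa
*Lims1*, the second PAS, chr10:57885381-57885410, plus strand: ctgcatATTAAAaccttgtttcagaaagaa
*Lims1*, the third PAS, chr10:57887212-57887241, plus strand: caaagccttattataacactttgcctgaaa
*Lims1* last PAS, chr10:57887404-57887433, plus strand: cttttggtgcttAATAAAtattcataatta
*Zcchc8* proximal PAS, chr5:124149995-124150024, minus strand: taagcttAATATAtcactttttaaagaaaa
*Zcchc8* distal PAS, chr5:124149772-124149801, minus strand: gtttAATAAAttagttttcttacacatgaa
*Gm15725* proximal PAS, chr16:37883598-37883627, plus strand: gcaagtactctgtgtggatcgatggctcca
*Gm15725* distal PAS, chr16:37888918-37888947, plus strand: AATAAAgatacagtgtgttcttctgagttt

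The last listed PAS of all 4 genes carried AATAAA, which started 17 to 29 nt before the PAS. Over the 19042 PASs listed for 3′-most or single exons, AATAAA was found within 40 nt in 40.6%, and ATTAAA, counted where AATAAA was missing, in 12.2%. The proximal PAS of *Zcchc8* had AATATA, a form assigned to 1.73% of PASs. No hexamer of the search lay upstream of the *Lims1* PASs that give 3′UTRs of 151 and 2928 nt. The same held for the *Dusp11* PAS that gives 322 nt and for the proximal *Gm15725* PAS. Over all PASs no hexamer was found for 31.0%. A genomic stretch rich in A just downstream of a PAS, where an oligo(dT) primer can bind inside a transcript, was scored as the highest number of A in any 10 of the next 20 nt. This number was 1 to 6 at the 12 PASs of the 4 genes. Over all PASs its median was 3, and 7.18% had 7 or more, so 12 PASs are too few to differ from that share.

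**Figure D1:**
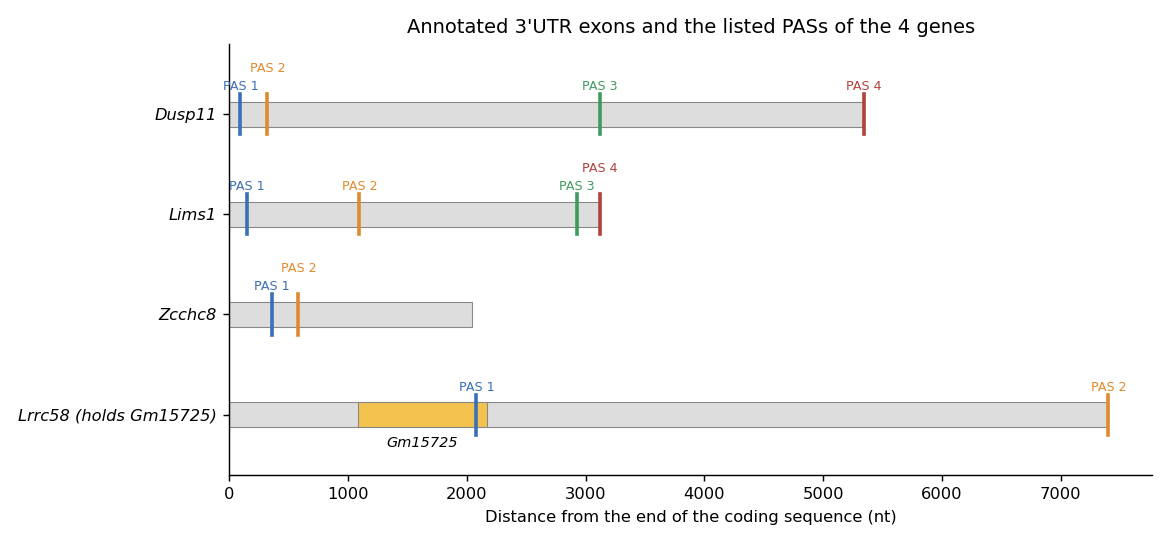
Annotated 3′UTR exons (grey bars, GENCODE vM1, mm9) with the listed PASs as coloured ticks, plotted by distance in nt from the end of the coding sequence. The *Dusp11* PASs span 5244 nt, the last *Lims1* PASs are 192 nt apart, the *Zcchc8* PASs are 223 nt apart, and *Gm15725* (yellow) lies inside the 7399-nt 3′UTR of *Lrrc58*.

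*Dusp11* encodes a phosphatase of RNA 5′ ends that removes phosphates from triphosphorylated RNAs. The gene (ENSMUSG00000030002.9, chr6:85892262-85911661 of mm9, minus strand) had 4 PASs, all in the exonic 3′UTR of transcript Dusp11-001, which gave 3′UTRs of 96, 322, 3119 and 5340 nt. Of the gene's reads, the most distal PAS, at the annotated end of the gene, had 25.8% in the NT library (23.2% to 28.6%, 95% Wilson interval). Its share was 15.5% (13.4% to 17.8%) after arsenite, 3.75% (2.78% to 5.05%) at 4 h of recovery and 5.20% (3.93% to 6.80%) at 8 h. The most proximal PAS had 33.1% (30.3% to 36.1%), 42.1% (39.1% to 45.2%), 57.0% (54.0% to 59.9%) and 49.8% (46.6% to 53.1%) in the same order of libraries. NT was the highest library for the distal site and the lowest for the proximal site, and the intervals of RC4 and RC8 did not overlap with those of NT or AS for the distal site.

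REDu values of *Dusp11* were −1.08 ± 0.18 (counting error), −3.57 ± 0.26 and −2.90 ± 0.25 in AS, RC4 and RC8, for the same pair of PASs each time. These correspond to 2.12-fold, 11.8-fold and 7.46-fold lower distal over proximal ratios than in NT. A REDu of −1 or less was found for 7.02%, 18.1% and 11.6% of the ranked genes of AS, RC4 and RC8. The RC4 value was even lower than that of *Lims1*, but it stood outside the ranking because the distal share of 3.75% was under 5%. It rested on a distal share that corresponds to 41 reads, and that of RC8 on a share that corresponds to 48.

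Isoform levels, as RPM of the gene times the PAS share, showed which isoforms moved. The longest *Dusp11* isoform had 11.4, 7.0, 1.79 and 2.1 RPM in NT, AS, RC4 and RC8, which is 6.40-fold lower in RC4 than in NT. The shortest isoform had 14.7, 19.0, 27.2 and 20.1 RPM. The third isoform in order of length, ending at the PAS that gives 3119 nt, had 15.5, 14.4, 14.8 and 15.9 RPM. Thus the distal isoform was lower and the most proximal one higher than in NT in all 3 treated libraries, while the isoform of 3119 nt had log2 differences of −0.10, −0.07 and 0.03. Relative to the median gene, the isoform of 3119 nt was at 0.24 in RC4. The second PAS, 226 nt after the first, was the least used in NT, at 6.07%, and took 10.6%, 8.18% and 5.54% in AS, RC4 and RC8.

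The share-weighted mean 3′UTR of *Dusp11* was 2521 ± 66, 1895 ± 62, 1251 ± 48 and 1573 ± 55 nt (counting errors) in NT, AS, RC4 and RC8. RLDu, the log2 ratio of relative 3′UTR length measured from the first PAS, was accordingly −0.43, −1.07 and −0.72. The level of the whole gene was 44.3, 45.2, 47.7 and 40.3 RPM, which is a log2 difference of 0.03, 0.11 and −0.14. The change of gene level did not enter the choice of the gene, although a minimum of 200 reads did. The median gene had a log2 difference of −0.04, −0.30 and 0.01, so relative to it *Dusp11* was higher in RC4, at 0.41. A lower level in each cell and a loss in part of the cells cannot be told apart in these libraries.

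**Figure D2:**
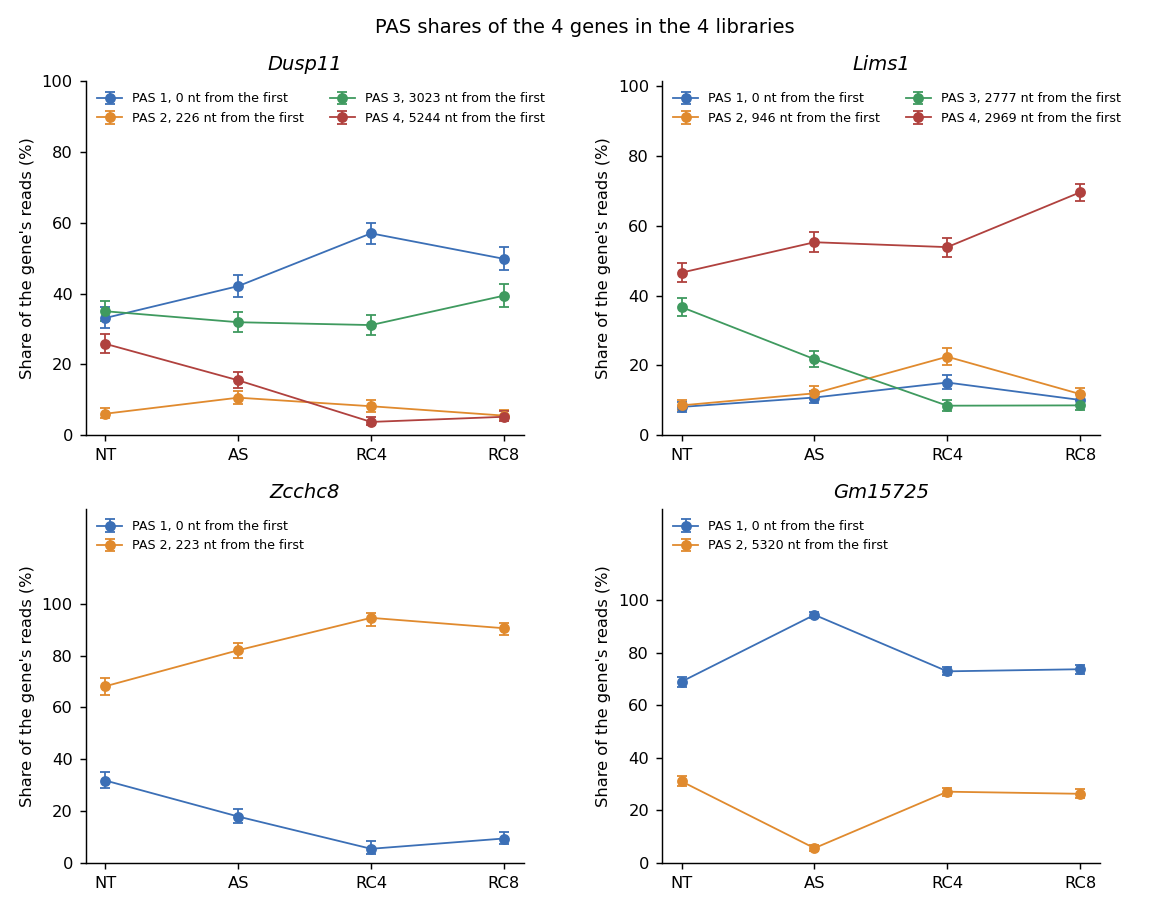
Share of each gene's reads (%) at each PAS in the NT, AS, RC4 and RC8 libraries, 1 library per condition. Points are deposited shares, bars are 95% Wilson intervals for the counting of reads, and lines join the values of 1 PAS; the last *Dusp11* PAS fell from 25.8% to 3.75% in RC4 and the last *Gm15725* PAS from 31.0% to 5.61% in AS.

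*Lims1* encodes PINCH1, an adaptor of LIM domains that joins integrin-linked kinase and parvin at focal adhesions. The gene (ENSMUSG00000019920.10, chr10:57786214-57887439 of mm9, plus strand) had 4 PASs in the exonic 3′UTR of transcript Lims1-001, which gave 3′UTRs of 151, 1097, 2928 and 3120 nt. The third PAS had 36.7% of reads (34.2% to 39.3%) in NT and 21.8% (19.5% to 24.3%) in AS. In RC4 its share was 8.46% (7.07% to 10.2%), and in RC8 it was 8.55% (7.20% to 10.1%). It was lower in all 3 treated libraries than in NT, and RC4 and RC8 did not differ beyond their intervals.

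The other PASs had higher shares than in NT in both RC4 and RC8, by different amounts. In RC4 the second PAS rose from 8.55% (7.16% to 10.1%) to 22.5% (20.3% to 24.9%) and the first from 8.11% to 15.1%, while the last one had 46.6% in NT and 53.9% in RC4. In RC8 the last PAS had 69.6% (67.2% to 71.9%), and the second and first had 11.8% and 10.1%. AS lay between RC4 and RC8, with 10.8%, 12.0% and 55.3% at the first, second and last PAS.

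REDu therefore compared different pairs of *Lims1* PASs. In RC4 it was −3.51 ± 0.22 for the second PAS and the third, which are 1831 nt apart, an 11.4-fold lower ratio. In AS and RC8 it was 1.00 ± 0.14 and 2.68 ± 0.16 for the third PAS and the last, which are 192 nt apart. The third PAS counted as distal in RC4 and as proximal in AS and RC8, so the sign of the score changed although the share of that site was lower each time. For the pair of RC4 taken in all libraries, the score was −1.24 ± 0.21, −3.51 and −2.57 ± 0.23. For the pair of AS and RC8, it was 1.00, 2.33 ± 0.17 and 2.68. Each of these pairs had 1 sign over the 3 comparisons. The first and the last PAS gave −0.17 ± 0.20, −0.69 ± 0.19 and 0.26 ± 0.20. The second and the last gave −0.24 ± 0.20, −1.19 ± 0.18 and 0.11 ± 0.19. For these last pairs the AS and RC8 values lay within 1.96 counting errors of no change, and the RC4 values did not. A REDu of 1 or more was found for 2.15%, 4.67% and 8.77% of the ranked genes in the 3 comparisons, and *Lims1* in AS, at 0.998 before rounding, was just under that bound.

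The third isoform of *Lims1* had 22.3, 11.5, 4.57 and 5.36 RPM in NT, AS, RC4 and RC8. The first isoform had 4.93, 5.69, 8.15 and 6.33 RPM, the second had 5.20, 6.33, 12.1 and 7.39, and the last had 28.3, 29.2, 29.1 and 43.6. The third isoform was thus 4.90-fold lower in RC4 and 4.17-fold lower in RC8. In RC4 the first and second isoforms were 1.65-fold and 2.33-fold higher and the last was 1.02-fold its NT level, and in RC8 the first, second and last were 1.28-fold, 1.42-fold and 1.54-fold higher. The whole gene had 60.8, 52.7, 54.0 and 62.7 RPM. Its log2 difference from NT was −0.21, −0.17 and 0.04, and relative to the median gene the RC4 value turned to 0.13. For the last isoform the log2 difference in RC4 was 0.04, and 0.34 relative to the median gene.

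Measured as length, the change of *Lims1* was largest in RC4. The mean 3′UTR was 2636 ± 25, 2514 ± 30, 2200 ± 34 and 2565 ± 27 nt in NT, AS, RC4 and RC8, and RLDu was −0.07, −0.28 and −0.04. When the last PASs, 192 nt apart, were added together, their joint share was 83.3% (81.3% to 85.2%) in NT, 77.1% (74.6% to 79.4%) after arsenite, and 62.4% (59.6% to 65.0%) and 78.2% (75.9% to 80.2%) at 4 h and 8 h of recovery. On that count the share of the distal region was lower in all 3 treated libraries, with REDu of −0.60, −1.81 and −0.56. Its level had log2 differences of −0.32 ± 0.06, −0.59 ± 0.07 and −0.05 ± 0.06 from NT, so in RC8 it was within the counting error of NT.

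*Zcchc8* encodes the zinc-knuckle scaffold of the nuclear exosome targeting (NEXT) complex, which with the helicase MTR4 and the RNA-binding protein RBM7 brings short-lived nuclear RNAs to the exosome. The gene (ENSMUSG00000029427.7, chr5:124148311-124171053 of mm9, minus strand) had 2 PASs, 223 nt apart, that gave 3′UTRs of 361 and 584 nt. The exonic 3′UTR is annotated as 2045 nt and runs past both. The proximal PAS had 31.8% (28.8% to 35.0%) of NT reads and 17.9% (15.3% to 20.9%) of AS reads. Its share of RC4 reads was 5.45% (3.39% to 8.45%), and that of RC8 reads 9.42% (7.47% to 11.9%). NT was highest and AS next, and the intervals of RC4 and RC8 overlapped.

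REDu values of *Zcchc8* were 1.1 ± 0.17, 3.01 ± 0.37 and 2.22 ± 0.22 in AS, RC4 and RC8. The ratio of distal over proximal shares was 2.14, 4.59, 17.4 and 9.62 in NT, AS, RC4 and RC8. The counting error was largest in RC4, where the proximal share corresponds to 17 reads. The interval of the RC4 value (2.28 to 3.74) also held the REDu of *Morc3*, the gene next in order. RLDu was 0.27, 0.47 and 0.43, and the mean 3′UTR went from 513 ± 4 nt in NT to 544 ± 3, 572 ± 3 and 563 ± 3 nt.

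The short *Zcchc8* isoform had 12.2, 5.79, 0.752 and 2.77 RPM in NT, AS, RC4 and RC8. The long isoform had 26.1, 26.6, 13.1 and 26.7 RPM. In AS and RC8 the long isoform had a log2 difference of 0.03 and the short one was lower, and in RC4 both were lower, the short one 16.2-fold and the long one 2.01-fold. The higher distal share therefore did not come with a higher level of the long isoform in any of the 3 treated libraries.

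*Zcchc8* was the 1 gene of the 4 with a gene level change of 1 or more in size. It had 38.3 RPM in NT, 32.4 in AS, 13.8 (12.3 to 15.4, exact Poisson interval) in RC4 and 29.4 in RC8. The log2 difference was −0.24 ± 0.07, −1.47 ± 0.09 and −0.40 ± 0.07. A decrease of 1 or more was found for 3.22%, 13.4% and 3.53% of all genes in the 3 comparisons, and *Zcchc8* in RC4 had a lower value than all but 4.25% of genes. Relative to the median gene, the log2 difference of *Zcchc8* in RC4 was −1.17.

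**Figure D3:**
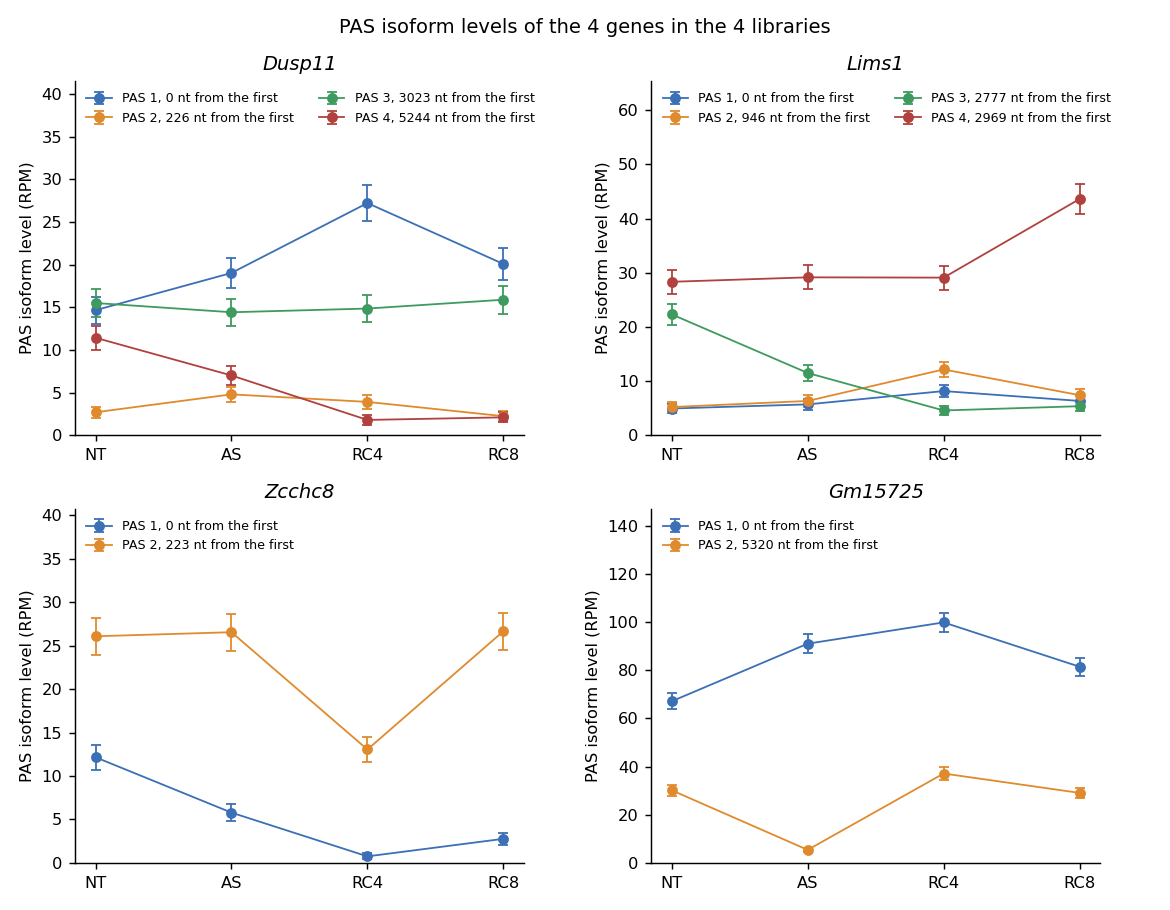
Level of each PAS isoform in RPM (gene level times PAS share) in the NT, AS, RC4 and RC8 libraries, 1 library per condition. Bars are 1.96 counting errors and lines join the values of 1 PAS; the short *Zcchc8* isoform fell from 12.2 to 0.752 and the long one from 26.1 to 13.1 RPM in RC4.

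*Gm15725* is annotated as a pseudogene (ENSMUSG00000083405.1, chr16:37882628-37883717 of mm9, plus strand). It lies in the exonic 3′UTR of *Lrrc58* (chr16:37881546-37888944, transcript Lrrc58-001), a gene on the same strand that encodes a protein of leucine-rich repeats. The proximal PAS lies inside the pseudogene. The distal PAS lies 5320 nt further, where the annotation holds no exon, and 3 nt past the annotated end of *Lrrc58*. Both were listed as single-exon PASs. The distal PAS had 31.0% (29.1% to 32.9%) of NT reads and 5.61% (4.70% to 6.64%) of AS reads. At 4 h of recovery it had 27.1% (25.6% to 28.7%), and at 8 h 26.3% (24.6% to 28.1%). AS stood apart from the other libraries, and RC4 and RC8 overlapped with each other and lay just under NT.

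REDu values of *Gm15725* were −2.92 ± 0.15, −0.27 ± 0.09 and −0.33 ± 0.09 in AS, RC4 and RC8. The medians of all ranked genes were −0.21, −0.34 and −0.13. The long isoform had 30.2, 5.41, 37.1 and 29.1 RPM in NT, AS, RC4 and RC8, a 5.57-fold lower level in AS. The short isoform had 67.2, 91.1, 99.9 and 81.5 RPM, and the sum over the gene was 97.3, 96.5, 137 and 111 RPM. Relative to the median gene, the log2 difference of the sum from NT was 0.03, 0.79 and 0.18.

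These values are not independent of *Lrrc58*. The proximal PAS is listed for both genes, and the last PASs of the genes are 71 nt apart. The 2198 NT reads of *Gm15725* were 83.3% of the 2638 reads counted for *Lrrc58*, and this was 91.4% in AS and 87.4% in RC4 and RC8. The last PAS of *Lrrc58* had 30.1%, 5.74%, 26.1% and 25% of its reads in NT, AS, RC4 and RC8. The REDu of *Lrrc58* was −2.90 ± 0.14, −0.32 ± 0.08 and −0.38 ± 0.09, within a counting error of *Gm15725* in each comparison. The lowest and the next lowest REDu of AS thus describe 1 stretch of the genome with largely the same read numbers, and the tables do not say which reads were counted for both genes.

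**Figure D4:**
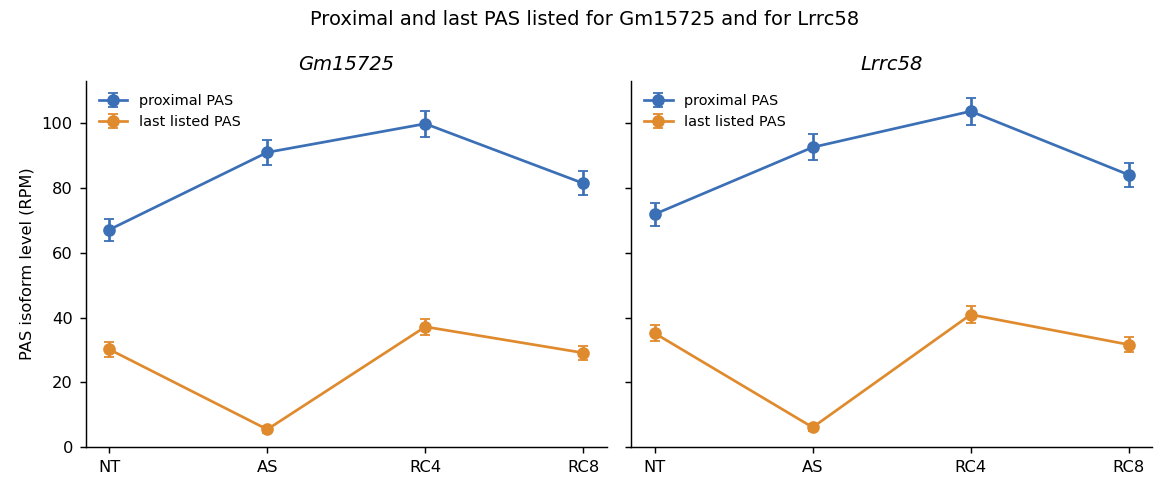
Level of the proximal and the last PAS isoform, in RPM, as listed for *Gm15725* (left) and for *Lrrc58* (right) in the 4 libraries, 1 library per condition, with bars of 1.96 counting errors. The last PAS was at 5.41 and 6.06 RPM in AS, against 30.2 and 35.2 in NT.

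The pseudogene resembles actin. Its 1090 nt are part of Lrrc58-001, and they aligned to the transcript Actb-001 of beta-actin over 1133 positions with 91.8% identity. The 200 nt upstream of the proximal PAS, where QuantSeq FWD reads lie, aligned to an *Actb* transcript with 96.1% identity and to gamma-actin, *Actg1*, with 87.6%, and had 44 other alignments of 100 nt or more in the mm9 genome, of which 1 had 95% identity or more, over 155 nt. The 200 nt upstream of the distal PAS had 11, of which 3 had 95% identity or more, over up to 198 nt. No such window of *Lims1*, *Zcchc8* or *Dusp11* had more than 1, and none of these reached 75% identity. *Actb* had 4365, 4649, 4756 and 5596 RPM in NT, AS, RC4 and RC8, which gave log2 differences of 0.09, 0.12 and 0.36 from NT, and the short isoform of *Gm15725* had 0.44, 0.57 and 0.28. Both were higher in the 3 treated libraries than in NT, and their sizes went in different orders, with RC8 highest for *Actb* and lowest for *Gm15725*. How many reads of either PAS came from these copies or from actin mRNA was not tested, and the counts of *Gm15725* at both PASs are uncertain for that reason. The actin-like window holds none of the searched hexamers within 40 nt of the PAS.

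The direction of REDu and the distance between the compared PASs differed among the 4 genes. The pairs of negative REDu were 5244 nt apart in *Dusp11*, 5320 nt in *Gm15725* and 1831 nt in *Lims1*, and those of positive REDu were 192 nt in *Lims1* and 223 nt in *Zcchc8*. Over all ranked genes the median distance was 613 nt in RC4, and 36.9% of pairs were under 300 nt apart. Of the 170 genes with REDu of 1 or more in RC4, 62.9% had such a short distance, and of the 660 genes with −1 or less 12.1% had. The 192 and 223 nt of *Lims1* and *Zcchc8* are near the length of a library fragment, and the assignment of their reads rests on the distribution of read-to-PAS distances that MAAPER learns. Its part in these values was not tested.

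**Figure D5:**
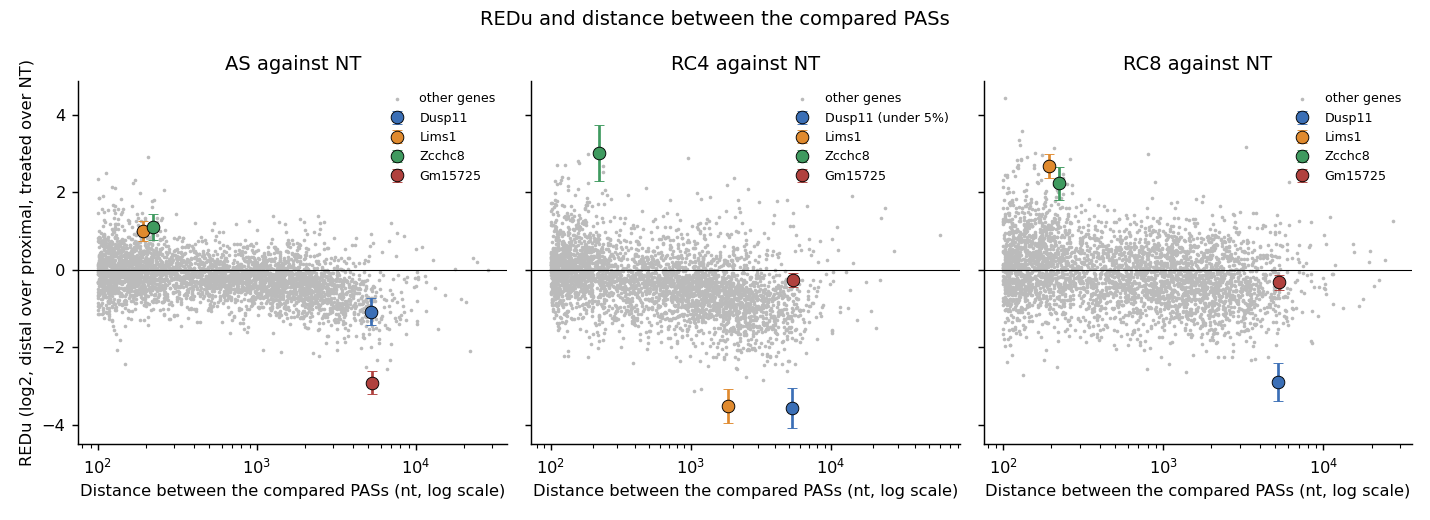
REDu (log2) of all ranked genes (grey) and of the 4 genes (coloured, bars of 1.96 counting errors) against the distance in nt between the compared PASs on a log axis, for AS, RC4 and RC8 against NT. *Lims1* lies at 192 nt with a positive value in AS and RC8 and at 1831 nt with −3.51 in RC4; *Dusp11* in RC4 is drawn although its distal share was under 5%.

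The stretches that separate the isoforms also differed in sequence. The 5244 nt of *Dusp11* hold 16 copies of ATTTA, the core of AU-rich elements, and the 5320 nt of *Gm15725* hold 21, counted on the transcript strand with overlaps allowed. This is 3.05 and 3.95 per kb, against 1.96 per kb over the compared stretches of 4461 genes in the RC4 table, 63.1% of which hold at least 1. The 1831 nt of *Lims1* hold 2, or 1.09 per kb, the 192 nt hold 0, and the 223 nt of *Zcchc8* hold 1, or 4.48 per kb. TGTANATA, the motif of Pumilio proteins, was found 6 times in the 5320 nt of the *Gm15725* stretch and in none of the others. Over all compared stretches, whose median length is 621 nt, it was found at 0.236 per kb, and 21.0% hold it. GC content was 42.8% in *Dusp11*, 37.1% in *Gm15725*, 37.0% in the *Lims1* stretch of RC4, 30.2% in the short *Lims1* stretch and 30.9% in *Zcchc8*, against a median of 40.9%.

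The genes whose 3 REDu values were closest to those of each gene were taken over the 3147 or 3148 other genes that were ranked in all comparisons, by Euclidean distance. They were *Tmed5*, *Nfia* and *Sc5d* for *Lims1*, at distances of 1.18 to 2.04. *Tmed5* had 1.02, −2.55 and 2.0 in AS, RC4 and RC8, and it also compared PASs 219 nt apart in AS and RC8 and 2105 nt apart in RC4. For *Zcchc8* they were *Zfp442*, *Nid1* and *Gm14122*, at 0.38 to 0.59, with PASs 156 to 237 nt apart. For *Dusp11* they were *Gosr1*, *Thoc2* and *Msi2*, at 1.28 to 1.65, with PASs 920 to 5042 nt apart. For *Gm15725* the closest was *Lrrc58*, at 0.07, and *Pkn2* was at 1.29. *Gosr1*, *Thoc2* and *Msi2*, like *Dusp11*, had their lowest value in RC4, at −2.85, −3.09 and −2.36. They were chosen for closeness in these same values, so this likeness is no separate result.

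Among partners of *Lims1*, 25 of 29 genes of a list of the integrin-linked kinase complex and focal adhesions were in the tables. A log2 level change of 1 or more was found for 0, 1 and 2 of them in AS, RC4 and RC8, beside 0.622%, 3.69% and 2.97% of all genes. A change of −1 or less was found for 1, 3 and 0, beside 3.22%, 13.4% and 3.53%. The median changes were −0.23, 0.00 and 0.04, beside −0.04, −0.30 and 0.01 over all genes. REDu was −1 or less in 1 of 14, 3 of 16 and 0 of 14 ranked genes, beside 7.02%, 18.1% and 11.6% of all, and 1 or more in 0, 1 and 2, beside 2.15%, 4.67% and 8.77%. The medians were −0.24, −0.38 and 0.27, beside −0.21, −0.34 and −0.13. *Pxn* (paxillin), *Itgav* and *Tns1* had −1.58, −1.47 and −1.33 in RC4, and in RC8 *Tns1* had 1.44, for another pair of PASs. *Vasp*, a regulator of actin filaments, had 0.35, 1.59 and 1.13. *Nck2*, an adaptor that binds PINCH1, had 2.83 RPM in NT and 7.57 in RC8. *Ilk* itself, the kinase bound by PINCH1, had 30 RPM in NT and 28.2, 22.2 and 25 in AS, RC4 and RC8.

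Among partners of *Zcchc8*, 23 of 24 genes of the nuclear exosome and NEXT list were in the tables. No gene had a log2 level change of 1 or more, beside 0.622%, 3.69% and 2.97% of all genes in AS, RC4 and RC8. A change of −1 or less was found for 0, 1 and 1, beside 3.22%, 13.4% and 3.53%. The median of the list in RC4 was −0.55, beside −0.30 over all genes. *Exosc3*, an exosome subunit, had 16.5 RPM in NT and 6.25 in RC4, and its REDu was 1.07 in AS and 1.55 in RC8 for PASs 193 nt apart. REDu was −1 or less in 2 of 12, 2 of 11 and 2 of 12 ranked genes, beside 7.02%, 18.1% and 11.6% of all, and 1 or more in 1, 0 and 2, beside 2.15%, 4.67% and 8.77%. The medians were −0.17, −0.56 and −0.10, beside −0.21, −0.34 and −0.13. *Ncbp2*, a cap-binding subunit, and *Papd7*, a poly(A) polymerase, had −1.53 and −1.50 in RC4, and the nuclease *Dis3* had −1.46 in AS. *Pabpn1*, the nuclear poly(A)-binding protein, had 1.40 in RC8. *Rbm7*, the RNA-binding partner of *Zcchc8* in NEXT, had 69.5 RPM in NT and 87.0, 46.7 and 81.8 in AS, RC4 and RC8.

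Among genes that act on RNA 5′ ends like *Dusp11*, 18 of 20 of the list were in the tables. A decrease of 1 or more in level was found for 1 gene, *Pnrc1* in RC8, at −1.26. Over all genes such a decrease was found for 3.22%, 13.4% and 3.53% in AS, RC4 and RC8. No gene of the list had an increase of 1 or more, beside 0.622%, 3.69% and 2.97% of all. REDu was −1 or less in 1 of 10 ranked genes in AS, 4 of 10 in RC4 and 4 of 11 in RC8, beside 7.02%, 18.1% and 11.6% of all. It was 1 or more in 0, 0 and 2, beside 2.15%, 4.67% and 8.77%, and *Pnrc1* was at 1.72 in RC8. The 5′-3′ exonuclease *Xrn1* had −0.64, −2.32 and −1.86, for PASs 3311 nt apart in AS and 2166 nt in RC4 and RC8. The cap methyltransferase *Cmtr1* had −0.58, −0.62 and −1.56, for PASs 2617 nt apart in AS and RC4 and 3289 nt in RC8. *Dcp2*, the decapping enzyme, had −1.92 in AS and 0.52 and 0.64 in RC4 and RC8 for the same pair of PASs. Its activator *Dcp1a* had −1.51 in RC4. The medians of the list were −0.44, −0.78 and −0.04, beside −0.21, −0.34 and −0.13 over all ranked genes. *Nat8b*, the 1 other gene annotated within 10 kb of the *Dusp11* PASs, is not listed in the tables analysed here.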

How the data were processed

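QuantSeq FWD libraries of NIH3T3 cells (NT, AS, RC4 and RC8, 1 per condition) were analysed from 3 pairs of tables, one pair per treated library with NT. The authors trimmed reads with bbmap, mapped them to mm9 with STAR (2.5.2a in the submitters' processing notes) and applied MAAPER with PolyA_DB v3, to genes with at least 50 reads and PASs at 5% or more. For every gene the authors deposited raw read counts, not normalized, 2 columns for each library, and what sets the columns apart is not given in the sources used here. They were added and not used as replicates. PAS shares are fractions of a gene's reads, as estimated by MAAPER and deposited. Read numbers at a PAS are the reads of the gene times the share, rounded, and were not counted. The intervals and counting errors do not cover the estimation of the shares. The tables also hold the authors' P values and RED and RLD scores, which were not used. Columns for condition 1 were taken as NT and those for condition 2 as the treated library. QuantSeq REV libraries were not analysed here.

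REDu and RLDu were computed from the shares with the formulas of the study's methods. PASs of the 3′-most exon entered, or single-exon PASs in genes without them. Counting errors are square roots of summed inverse read numbers on the log2 scale. Shares have 95% Wilson intervals and gene levels exact Poisson intervals. Levels are RPM, scaled to the total reads on listed genes, and no pseudocount was used. The REDu scoring was tested on simulated data, with independent reads and only genes of 2 PASs. The choice of a pair among more PASs was therefore not tested. Sequence and annotation came from NCBIM37, whose chromosome names and lengths match mm9, with GENCODE vM1, and alignments from blastn 2.17.0. Scripts used Python 3.11.15, pandas 2.3.3 and scipy 1.17.1.

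The 4 genes, the gene lists and the tests were chosen with earlier results of these data known. Other genes named are those next in the REDu order, the 3 most like each gene (1 of these genes is not reported here), those within 10 kb, and at most 5 per list with a log2 level change or REDu of 1 or more in size. *Actb* and *Actg1* were named because a result turns on them, and *Ilk* and *Rbm7*, added after their values were seen, as direct partners. Older symbols in the lists were matched to genes through RefSeq, and 1 symbol of the RNA 5′ end list had no match. Alternatives were other pairs of PASs, PASs within 300 nt added together, another scaling and other filters.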

Additional observations from a re-analysis of the deposited data

Results flagged for a closer look

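The REDu of *Lims1* was 1.00, −3.51 and 2.68 in AS, RC4 and RC8, so its sign differed between comparisons by more than 1.96 counting errors each time. The difference between the comparisons was not tested, since each condition has 1 library, and the scores used different pairs of PASs.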

How the results depend on the processing

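No paired analysis was possible because each condition has 1 library. *Zcchc8* and *Gm15725* have 2 PASs each, so the other choices of a pair returned the same REDu and say nothing of its stability. *Zcchc8* gave no REDu with PASs within 300 nt added together, and *Gm15725* none without single-exon PASs. REDu of *Dusp11* could change with PASs within 300 nt added together, and stayed within 1.96 counting errors there. *Lims1* did not keep its values. For AS, RC4 and RC8 its REDu came to −0.17, −0.69 and 0.26 with the first and last PAS, and to −0.60, −1.81 and −0.56 with PASs within 300 nt added together. The latter alternative also lowered the share of genes with REDu of 1 or more to 0.454% in AS (12 genes, from 84), 2.26% in RC4 (57, from 170) and 3.12% in RC8 (84, from 335), where pairs under 300 nt apart no longer count. Scaled to the median gene, the RC4 level change was 0.13 for *Lims1* (reversed from −0.17), −1.17 for *Zcchc8*, 0.41 for *Dusp11* and 0.79 for *Gm15725*. Other alternatives, each count column alone and RLDu among them, moved no value of the 4 genes beyond 1.96 counting errors, apart from 6 isoform levels of RC4 under that scaling. With shares that correspond to 17 to 64 reads at the least used PASs, depth limits REDu of *Zcchc8* and *Dusp11* in RC4 and RC8.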
